A study of Mus musculus with 6 samples.

Results

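Small nucleolar RNAs and the genes that carry them were described in CD8+ T cells from mouse spleen after haematopoietic stem cell transplantation (HSCT). All rows of the expression table with a symbol starting Snora, Snord, Scarna or Snhg were taken, together with Gas5, which gave 38 of 14750 rows. Of these, 27 were small RNAs (6 box C/D RNAs named Snord, 16 box H/ACA RNAs named Snora and 5 Cajal body RNAs named Scarna) and 11 were host genes. There were 6 libraries of rRNA-depleted total RNA. The 3 libraries labelled allo-HSCT were from Balb/c hosts given C57BL/6 donor cells, and the 3 labelled syn-HSCT were from Balb/c hosts given Balb/c donor cells, so donor strain differed between the groups by design. Age, conditioning and time after transplantation are not given in the sources used here, nor is it said that the libraries came from separate animals, so the errors and p-values given cover differences among libraries that may be technical replicates.

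The strain genes ran against the labels. H2-Ea-ps, the pseudogene form of a class II gene whose intact form Balb/c mice express, averaged 1955 ± 48.9 FPKM (fragments per kilobase of exon per 1000000 fragments) with the allo-HSCT label and 4.76 ± 1.66 FPKM with the syn-HSCT label (SD, n = 3 each). Ly6a, an antigen abundant on C57BL/6 T cells, averaged 28.6 ± 1.75 FPKM with the allo-HSCT label and 332 ± 0.44 FPKM with the syn-HSCT label. The column names carry the letter S for the libraries labelled allo-HSCT and A for those labelled syn-HSCT. Every direction given here is therefore between libraries as labelled, which are called allo-labelled and syn-labelled from here on.

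The libraries were not pure T cells by their markers. Summed T cell markers, 7 genes including Cd3e and Cd8a, were 1622 to 1723 FPKM in allo-labelled and 1989 to 2026 FPKM in syn-labelled libraries, but the members did not move together: 5 (Cd3e, Cd3d, Cd3g, Trac and Thy1) were lower, Cd8b1 was not called, and Cd8a was higher, at 351 ± 9.69 FPKM in allo-labelled and 240.2 ± 1.27 FPKM in syn-labelled libraries (SD, n = 3 each; limma adjusted p = 2.33e-06). Summed markers of neutrophils, 6 genes of which all had the higher mean in allo-labelled libraries, were 1772 to 1884 FPKM in allo-labelled and 87.0 to 95.6 FPKM in syn-labelled libraries. The 6 dendritic cell markers summed to 243 to 260.1 FPKM in allo-labelled and 72.5 to 76.7 FPKM in syn-labelled libraries. Itgax made up most of the syn-labelled sum, with a mean of 66.1 FPKM there, and was 1.25-fold higher in allo-labelled libraries. Xcr1, Clec9a, Flt3, Batf3 and Zbtb46 were 15.5-fold to 28.8-fold higher. The 4 macrophage markers summed to 27.1 to 31.3 FPKM in allo-labelled and 5.61 to 5.91 FPKM in syn-labelled libraries. The 2 erythroid markers in the table summed to 43.1 to 50.5 FPKM in allo-labelled and 0.50 to 1.25 FPKM in syn-labelled libraries. The B cell markers Cd79a and Cd79b summed to 7.16 to 8.42 FPKM in allo-labelled and 7.69 to 8.07 FPKM in syn-labelled libraries. The 2 natural killer cell markers summed to 5.10 to 5.97 FPKM in allo-labelled and 12.0 to 12.6 FPKM in syn-labelled libraries, with Klrb1c lower (means of 0.57 FPKM in allo-labelled and 11.3 FPKM in syn-labelled libraries) and Ncr1 higher (4.84 FPKM in allo-labelled and 0.90 FPKM in syn-labelled libraries). The 2 CD4 T cell markers summed to 8.44 to 9.65 FPKM in allo-labelled and 3.35 to 3.62 FPKM in syn-labelled libraries. No defining marker with a row was at 0 in all libraries of a group. The part of these other cells in the differences that follow was not tested, and in bulk samples fewer cells of a type and less RNA per cell cannot be told apart.

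Small nucleolar RNAs guide chemical modification of other RNAs in the nucleus. Box C/D RNAs direct 2′-O-methylation by fibrillarin, box H/ACA RNAs direct pseudouridylation by dyskerin, and the small Cajal body RNAs do the same for spliceosomal RNAs. In mammals most are cut out of introns, either of protein-coding genes such as those of ribosomal proteins or of non-coding host genes such as Gas5 and the Snhg genes, whose spliced RNA is often short-lived and starts with a pyrimidine tract that ties it to the growth-regulated translation machinery.

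None of the shortest small RNAs had a row in the table. Of 150 named small RNAs of these 3 families in GENCODE vM21 (GRCm38), 27 (18%) had a row in the table, and a row existed only where the larger of the group means was at least 0.5 FPKM. Of 89 annotated RNAs under 100 bases 0 had a row, beside 4 of 7 at 100 to 119 bases, 14 of 38 at 120 to 139 bases and 9 of 16 at 140 bases or more. The shortest gene of any kind in the table was 100 bases long. Box C/D RNAs, with a median annotated length of 84 bases, were represented by 6 of 99, box H/ACA RNAs by 16 of 42 and Cajal body RNAs by 5 of 9. The 10 small RNAs annotated inside Gas5, of 60 to 84 bases, had no row at all, nor did Snord50a and Snord50b of 72 bases inside Snhg5, Snora24 of 130 bases inside Snhg8 or Snora9 of 133 bases inside Snhg15.

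**Figure D1:**
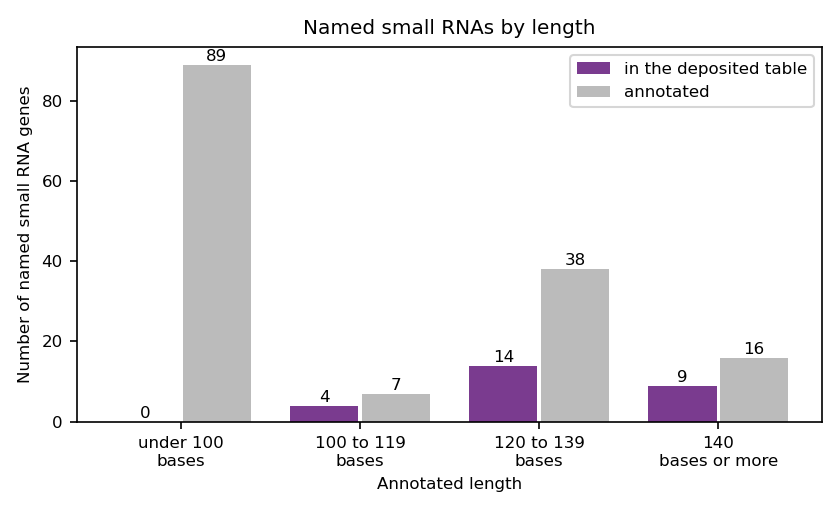
Number of named Snora, Snord and Scarna genes by annotated length in bases, those with a row in the deposited table in purple and all those annotated in grey. No annotated small RNA under 100 bases is in the table, although 89 of the 150 are that short.

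The 5 sequences shown are those the small RNA results turn on: the most abundant one, the one with the steadiest gain, the one that fell, and the 2 next most abundant ones. They were taken from the GENCODE vM21 transcript sequences, on the strand of the RNA, and are printed 5′ to 3′ as DNA. The coordinates beside them are those of the same annotation (GRCm38). Capitals mark TGATGA in the first 30 bases (one spelling of box C), CTGA in the last 30 bases (box D), ANANNA nearest the middle (box H) and ACA in the last 10 bases (the ACA box), searched on the RNA's strand only.
Snora31, box H/ACA, chr14:75847905-75848034, plus strand, 130 bases: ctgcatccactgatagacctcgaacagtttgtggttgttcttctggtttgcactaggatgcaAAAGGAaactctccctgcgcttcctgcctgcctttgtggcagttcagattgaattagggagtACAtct
Scarna6, Cajal body, chr1:87784556-87784820, plus strand, 265 bases: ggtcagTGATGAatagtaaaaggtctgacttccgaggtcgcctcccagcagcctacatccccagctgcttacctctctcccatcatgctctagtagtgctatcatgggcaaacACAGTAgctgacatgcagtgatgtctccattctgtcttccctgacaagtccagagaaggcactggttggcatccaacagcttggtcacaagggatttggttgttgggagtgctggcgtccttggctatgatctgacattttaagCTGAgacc
Snora21, box H/ACA, chr11:97781639-97781775, minus strand, 137 bases: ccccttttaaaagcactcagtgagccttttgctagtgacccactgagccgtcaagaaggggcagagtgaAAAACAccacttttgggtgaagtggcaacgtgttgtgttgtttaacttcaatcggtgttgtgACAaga
Snora41, box H/ACA, chr1:63179004-63179135, plus strand, 132 bases: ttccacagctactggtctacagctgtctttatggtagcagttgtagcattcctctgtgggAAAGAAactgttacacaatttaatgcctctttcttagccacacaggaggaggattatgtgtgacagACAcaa
Snord17, box C/D, chr2:144265979-144266216, minus strand, 238 bases: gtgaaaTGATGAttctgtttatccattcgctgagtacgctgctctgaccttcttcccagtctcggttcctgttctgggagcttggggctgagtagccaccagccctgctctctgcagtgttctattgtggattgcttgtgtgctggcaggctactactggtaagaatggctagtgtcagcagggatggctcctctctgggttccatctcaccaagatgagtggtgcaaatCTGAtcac

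Snora31, Snora21 and Snora41 ended with ACA 3 bases from the 3′ end, and Scarna6 carried box C and box D spellings at its ends. Both C/D spellings were found in 5 of the 6 box C/D RNAs in the table, against 71.7% of the 99 annotated. The exception was Snord43, whose annotated class is miRNA. Its annotated sequence holds TGATGA, but beyond the stretch searched at its start, so the box C spelling was not counted there. ACA lay in the last 10 bases of 16 of 16 box H/ACA RNAs in the table, against 95.2% of the 42 annotated. A match of letters is a description and does not show that a box is used.

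The host genes moved one way where they moved. Of the 11 host genes, 10 passed the filter of at least 1 FPKM in at least 3 libraries, 6 were higher in allo-labelled libraries (Snhg15, Snhg12, Snhg8, Snhg17, Snhg1 and Gas5), 0 were lower and 4 did not pass the test (limma on log2(FPKM + 1), adjusted p under 0.05 over 12404 genes). The background was high: 67.6% of all genes tested were called, 34.7% higher and 33.0% lower. The groups of 3 libraries did not overlap for 6 of the 11 host genes, against 72.3% of all genes tested. The median log2 difference of the 10 host genes was 0.31, against 0.01 over all genes tested. No host gene was lower at an unadjusted p under 0.05 either, and 1 (Snhg4) was called lower by limma after quantile normalization. Summed over all 11, host genes reached 141, 142 and 146 FPKM in allo-labelled libraries, against 112, 109 and 108 FPKM in syn-labelled libraries.

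Snhg15 had the largest difference of the host genes tested. It lies on chromosome 11 (6525591 to 6528760, minus strand) and carries the box H/ACA RNA Snora9. Its level was 11.4, 13.0 and 14.1 FPKM in allo-labelled libraries, against 5.82, 6.23 and 5.90 FPKM in syn-labelled libraries. All 3 allo-labelled libraries lay well above all 3 syn-labelled ones, on 241 to 291 fragments in allo-labelled and 121 to 153 in syn-labelled libraries. Mean FPKM was 2.15-fold higher in allo-labelled libraries, a log2 difference of 0.98 ± 0.08 (SE; limma adjusted p = 3.53e-05).

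Snhg12, on chromosome 4, hosts 5 annotated small RNAs. It had 9.40, 9.22 and 9.13 FPKM in allo-labelled libraries, against 5.46, 5.34 and 5.39 FPKM in syn-labelled libraries. The replicates of Snhg12 lay close together in both groups, and the groups did not overlap. Its mean was 1.71-fold higher in allo-labelled libraries, with a log2 difference of 0.68 ± 0.04 (SE; limma adjusted p = 9.73e-06). Snora16a lies in an exon of Snhg12, so fragments of the host and of the small RNA can overlap there. The same limit holds for other hosts. Annotated exons together cover all of Snhg1 (2969 bases) and Snhg8 (853 bases), and most of Gas5 (3760 bases) and Snhg17 (7052 bases). Spliced host RNA, unspliced host RNA and small RNA cannot be told apart in the values of these genes. Snora16a itself had 3, 0 and 1 fragments in allo-labelled libraries and 0 in each syn-labelled library, too few to read a difference from.

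Snhg8, which hosts the box H/ACA RNA Snora24, was one of the more abundant host genes. It had 31.6, 30.9 and 31.8 FPKM in allo-labelled libraries, against 21.7, 20.9 and 18.8 FPKM in syn-labelled libraries. The groups did not overlap, and the spread was wider among the syn-labelled libraries. The log2 difference was 0.60 ± 0.05 (SE; limma adjusted p = 6.86e-05), a 1.53-fold higher mean in allo-labelled libraries.

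Snhg17, on chromosome 2, carries 3 annotated small RNAs of 113 to 132 bases. It had 4.79, 5.14 and 4.84 FPKM in allo-labelled libraries, against 3.00, 3.14 and 3.26 FPKM in syn-labelled libraries. Every allo-labelled library was above every syn-labelled one. The mean was 1.57-fold higher in allo-labelled libraries, and the log2 difference was 0.52 ± 0.06 (SE; limma adjusted p = 0.000214).

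Snhg1 and Gas5 showed smaller and similar differences. Snhg1, which carries 8 annotated small RNAs on chromosome 19, had 17.8, 18.6 and 17.4 FPKM in allo-labelled libraries, against 14.5, 13.1 and 15.03 FPKM in syn-labelled libraries. Gas5, the growth arrest-specific gene of chromosome 1 whose introns carry many box C/D RNAs, was the most abundant host gene, with 34.7, 37.7 and 37.2 FPKM in allo-labelled libraries, against 30.4, 28.6 and 28.9 FPKM in syn-labelled libraries. Neither gene's groups overlapped. For Snhg1 the log2 difference was 0.32 ± 0.05 (SE; limma adjusted p = 0.00178), and for Gas5 it was 0.31 ± 0.04 (SE; limma adjusted p = 0.000491), with mean FPKM 1.26-fold and 1.25-fold higher in allo-labelled libraries. Gas5 rested on 1748 to 2318 fragments per library.

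The other 5 host genes showed no difference beyond the spread between libraries. Snhg5, host of Snord50a and Snord50b, had 12.9, 12.4 and 13.8 FPKM in allo-labelled libraries, against 12.1, 13.3 and 13.3 FPKM in syn-labelled libraries. The 2 groups of Snhg5 lay on top of each other, and its log2 difference had a 95% interval of -0.12 to 0.15 (limma adjusted p = 0.852). Snhg6, host of Snord87, had 11.5, 8.49 and 9.44 FPKM in allo-labelled libraries, against 10.8, 9.61 and 9.93 FPKM in syn-labelled libraries. The allo-labelled libraries of Snhg6 held both the highest and the lowest value, and the interval was -0.29 to 0.20 (limma adjusted p = 0.705). Snhg20 had 4.98, 4.12 and 6.40 FPKM in allo-labelled libraries, against 5.94, 5.18 and 5.13 FPKM in syn-labelled libraries, again with the extremes among the allo-labelled ones and an interval of -0.40 to 0.25 (limma adjusted p = 0.661).

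Snhg4 had 1.34, 1.86 and 1.58 FPKM in allo-labelled libraries, against 1.95, 1.79 and 1.87 FPKM in syn-labelled libraries. One allo-labelled library reached into the syn-labelled range, and the log2 difference of -0.15 ± 0.09 (SE) was not called (limma adjusted p = 0.202). After quantile normalization Snhg4 was called lower, at -0.39 with a limma adjusted p of 0.00913. Snhg10, which carries Scarna13 in an intron, did not pass the filter. It had 0.61, 1.04 and 0.50 FPKM in allo-labelled libraries, against 0.49, 1.46 and 0.81 FPKM in syn-labelled libraries, on 4 to 14 fragments per library, and the groups overlapped.

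**Figure D2:**
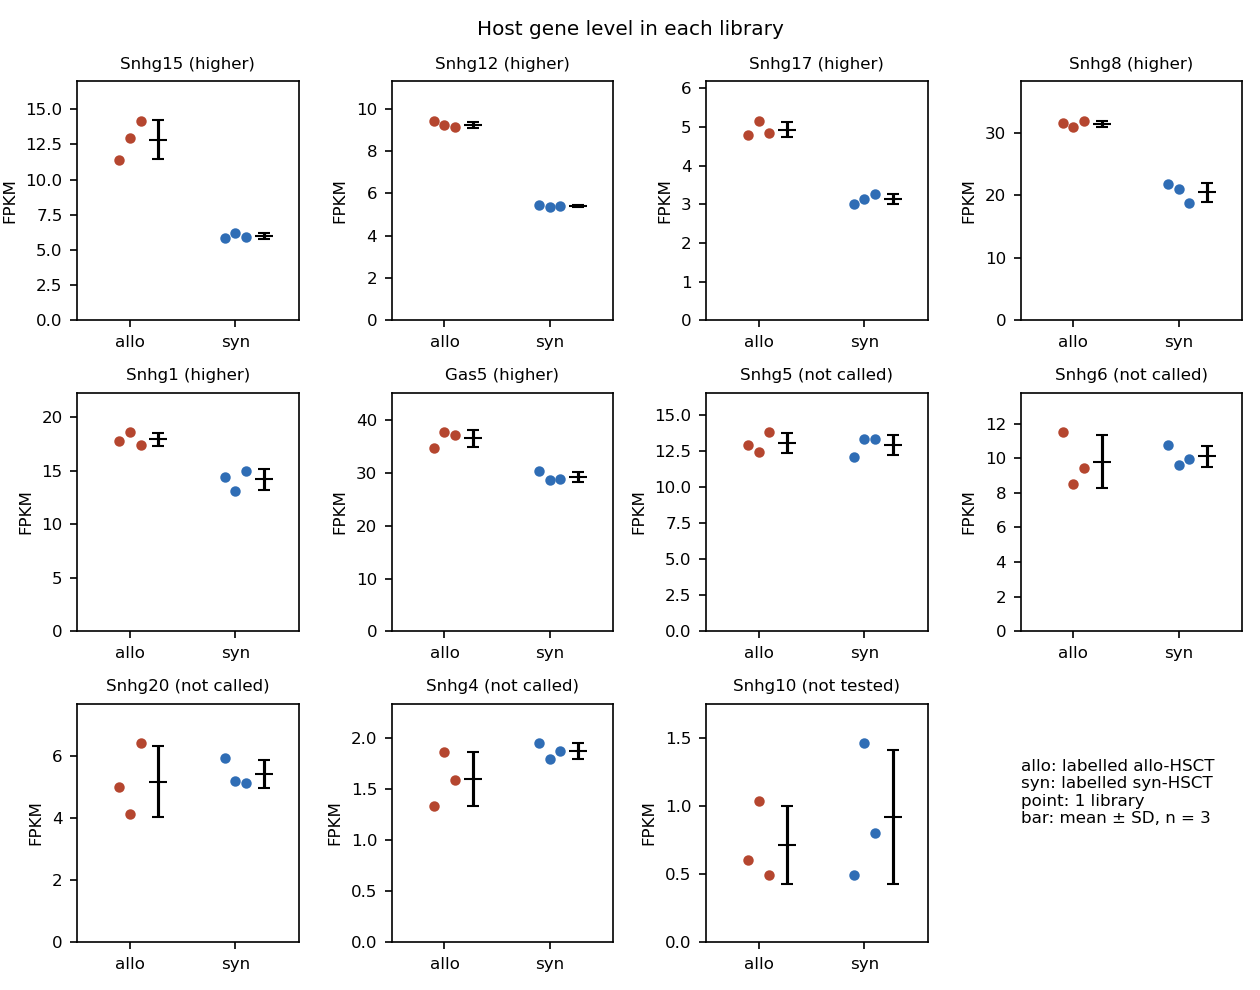
FPKM of the 11 host genes in each library, with allo-labelled libraries on the left in red and syn-labelled libraries on the right in blue, and mean ± SD (n = 3) as black bars; each axis starts at 0. In the 6 genes called higher (Snhg15, Snhg12, Snhg17, Snhg8, Snhg1 and Gas5) the groups are apart, and in the other 5 they overlap.

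Because the host genes called moved in one direction, and because a pyrimidine tract at the start site is known for this class, the 30 bases around the RefSeq start sites (10 before and 20 from the start on, GRCm38.p6) are shown. Capitals mark the longest run of C and T on the gene's strand.
Snhg15, chr11:6528741-6528770, minus strand: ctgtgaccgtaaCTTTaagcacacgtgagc
Snhg12, chr4:132308668-132308697, plus strand: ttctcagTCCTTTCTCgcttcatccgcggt
Snhg8, chr3:123508317-123508346, minus strand: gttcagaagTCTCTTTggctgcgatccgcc
Snhg17, chr2:158361490-158361519, minus strand: aagaccacagTTTCCTgtcgcgtggatgtg
Snhg1, chr19:8723477-8723506, plus strand: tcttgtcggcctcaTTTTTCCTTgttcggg
Gas5, chr1:161035156-161035185, plus strand: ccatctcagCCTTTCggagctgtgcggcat
Snhg5, chr9:88522878-88522907, minus strand: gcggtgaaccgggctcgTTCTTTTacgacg

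A run of at least 7 bases of C and T stood in this window in 5 of the 9 host genes with a RefSeq entry. These were Snhg1 and Snhg12 with 9 bases, Snhg10 with 8, and Snhg8 and Snhg5 with 7. The run spanned the start only in Snhg12 and Snhg8. It began at base 5 after the start in Snhg1 and at base 8 in Snhg5, and lay wholly before the start in Snhg10. Counted by entry, 5 of 11 host entries held such a run. Among all 32851 entries of the RefSeq table, 17.9% held such a run on the gene's strand. A run of A and G of that length, which is the same motif on the other strand, was held by 20.6%. Gas5 and Snhg17 each had 2 entries, of which the one shown held a run of 6 at the start; the longest run was 3 at the other Gas5 start, and at the other Snhg17 start the run of 6 lay further downstream. Snhg15 and Snhg20 had runs of 4. Host genes with a long run were found among those called higher (Snhg12, Snhg8, Snhg1) and among those not called or not tested (Snhg5, Snhg10). The annotated start may differ from the start used in these cells, which these data do not give.

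The small RNAs were close to the limit of counting. At 130 bases, 1 fragment was worth 0.411 to 0.508 FPKM, and the 27 small RNAs together held 263, 311 and 277 fragments in allo-labelled libraries, against 240, 266 and 233 fragments in syn-labelled libraries. Per 1000000 recovered fragments these sums were 16.9, 19.0 and 18.3 in allo-labelled libraries, against 15.7, 14.7 and 12.5 in syn-labelled libraries, so that the groups did not overlap. Between 29.3% and 45.1% of them were Snora31. The median small RNA had a mean of 4.67 fragments per library, 6 had a mean of at least 10, and 14 had at least 1 library at 0. Reads of the mature small RNA and of the intron around it in an unspliced host RNA cannot be told apart in these values.

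Few small RNAs passed the test. Of the 27, 20 passed the filter, of which 4 were higher in allo-labelled libraries (Snora31, Scarna6, Snora23 and Snord23), 1 was lower (Snora21) and 15 were not called, beside 34.7% and 33.0% over all genes tested. The median log2 difference was 0.29, and the median SE was 0.41 for small RNAs, 0.06 for host genes and 0.07 for all genes tested. By family, 1 of 6 box C/D RNAs tested was higher, 2 of 12 box H/ACA RNAs were higher and 1 was lower, and 1 of 2 Cajal body RNAs was higher.

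Snora31, a box H/ACA RNA in an intron of Tpt1, was the most abundant small RNA. It had 48.9, 50.3 and 48.7 FPKM in allo-labelled libraries, against 40.2, 33.2 and 43.2 FPKM in syn-labelled libraries. These rested on 96 to 107 fragments in allo-labelled and 78 to 105 in syn-labelled libraries. All allo-labelled libraries were above all syn-labelled ones in FPKM, with tighter values among the allo-labelled ones. The log2 difference was 0.35 ± 0.09 (SE; limma adjusted p = 0.0118), a 1.27-fold higher mean. With limma's voom on the recovered fragments Snora31 was no longer called (adjusted p = 0.0816).

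Scarna6, a Cajal body RNA in an intron of Atg16l1, had 9, 14 and 13 fragments in allo-labelled libraries, against 4, 7 and 4 fragments in syn-labelled libraries. In FPKM these were 2.18, 3.23 and 3.24 in allo-labelled libraries, against 0.99, 1.46 and 0.81 in syn-labelled libraries, and the groups did not overlap. The mean was 2.66-fold higher in allo-labelled libraries, a log2 difference of 0.90 ± 0.16 (SE; limma adjusted p = 0.00232). Scarna6 was called in all 14 alternatives in which it could be tested, with adjusted p up to 0.0370.

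Snora21, a box H/ACA RNA in an intron of the ribosomal protein gene Rpl23, was the small RNA that fell. It had 10, 5 and 8 fragments in allo-labelled libraries, against 16, 17 and 15 fragments in syn-labelled libraries. Every allo-labelled library was below every syn-labelled one, at 4.69, 2.23 and 3.85 FPKM in allo-labelled and 7.63, 6.86 and 5.85 FPKM in syn-labelled libraries. Its mean was 0.53 of that in syn-labelled libraries, a log2 difference of -0.79 ± 0.21 (SE; limma adjusted p = 0.0130), and voom on the recovered fragments did not call it (adjusted p = 0.102).

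The 2 other calls, named after their values were seen, rested on fewer fragments. Snora23, in an intron of the importin gene Ipo7, had 7, 9 and 5 fragments in allo-labelled libraries, against 3, 2 and 6 fragments in syn-labelled libraries. Snord23, in an intron of the ribosome assembly gene Nop53, had 7, 2 and 9 fragments in allo-labelled libraries, against 2, 1 and 0 fragments in syn-labelled libraries. Snora23 did not overlap in FPKM but did in fragments, and Snord23 overlapped in FPKM as well. Their log2 differences were 0.69 ± 0.22 and 1.47 ± 0.46 (SE; limma adjusted p = 0.0274 and 0.0270), and they were called in 7 and 8 of 14 alternatives.

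Of the small RNAs with a mean of at least 10 fragments, 4 were not called. Snord17, a box C/D RNA in an intron of Snx5, had 18, 38 and 24 fragments in allo-labelled libraries, against 27, 29 and 16 fragments in syn-labelled libraries, with a 95% interval of the log2 difference of -0.47 to 0.93. Snora41, in an intron of the translation elongation gene Eef1b2, had 16, 38 and 28 fragments in allo-labelled libraries, against 26, 12 and 18 fragments in syn-labelled libraries, with an interval of -0.28 to 1.497. Both had overlapping groups, and 1 allo-labelled library held the highest value of each.

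Snora57, for which no host on the same strand is annotated, had 12, 11 and 5 fragments in allo-labelled libraries, against 14, 16 and 13 fragments in syn-labelled libraries. Its fragments were fewer in every allo-labelled library, although the FPKM values overlapped, and the log2 difference of -0.45 ± 0.25 (SE) was not called (limma adjusted p = 0.144). Without allo-HSCT replicate 3, the library with 5 fragments, the difference was -0.17. Snora30 had 8, 6 and 17 fragments in allo-labelled libraries, against 7, 18 and 11 fragments in syn-labelled libraries. Its groups overlapped throughout, with an interval of -0.99 to 0.83, so that differences within that range were compatible with the values.

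The other 11 small RNAs tested and not called were Snord8, Snord15a, Snord43, Snord89, Snora17, Snora20, Snora34, Snora62, Snora69, Snora78 and Scarna8, with 0 to 15 fragments per library and overlapping groups in each. Over all 20 small RNAs tested, 13 had a positive and 7 a negative log2 difference, and ratios of mean FPKM were between 0.48 and 6.27.

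The 7 small RNAs below the filter were Snora47, Snora16a, Snora19, Snora2b, Scarna2, Scarna3a and Scarna13. Snora47, singled out after its values were seen, had 0, 0 and 1 fragments in allo-labelled libraries, against 2, 3 and 4 fragments in syn-labelled libraries. Its groups did not overlap, although each value was within a few fragments of 0. Scarna13, in Snhg10, had 1, 4 and 7 fragments in allo-labelled libraries, against 3, 0 and 1 fragments in syn-labelled libraries. Counting these 7, groups did not overlap in FPKM for 5 of 27 small RNAs, beside 72.3% of all genes tested.

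**Figure D3:**
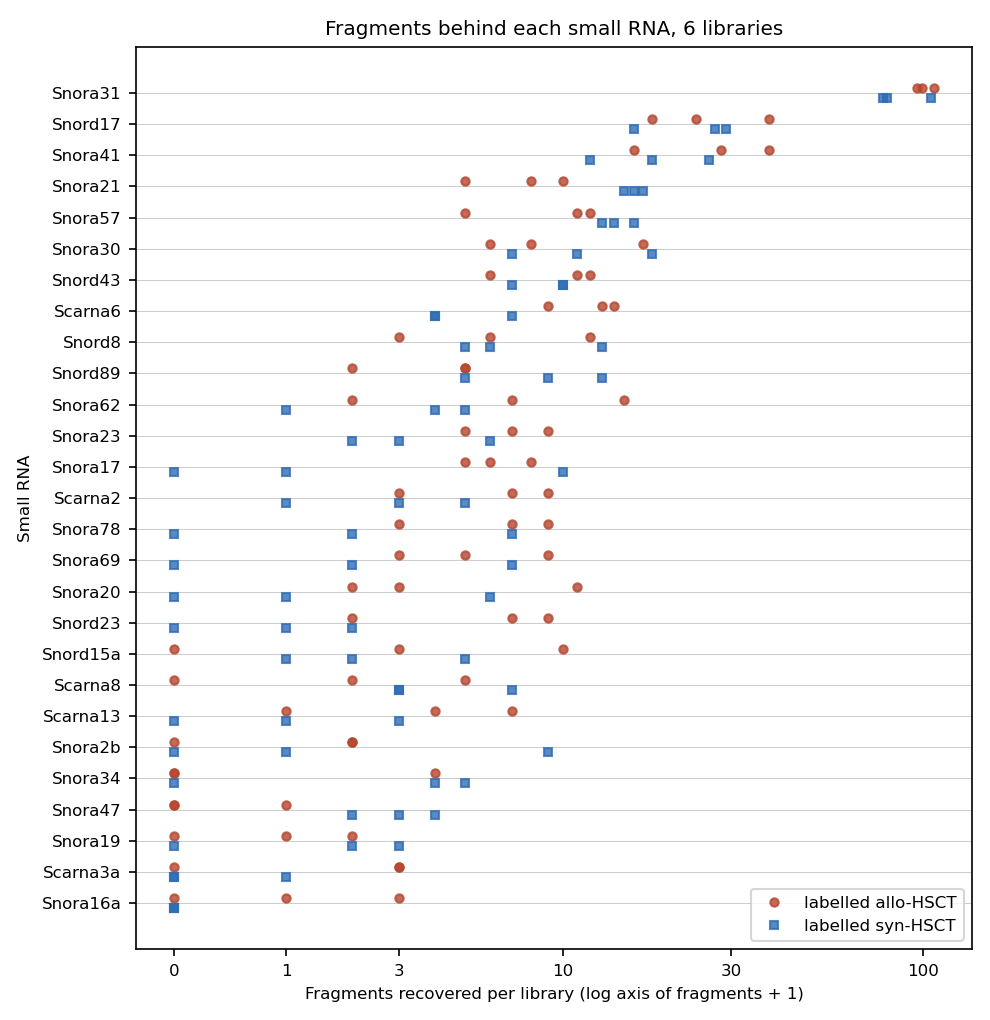
Fragments recovered from the FPKM values for each of the 27 small RNAs, on a log axis of fragments + 1, with allo-labelled libraries as red circles above and syn-labelled libraries as blue squares. Snora31 stands alone near 100 fragments, and 14 small RNAs have at least 1 library at 0.

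**Figure D4:**
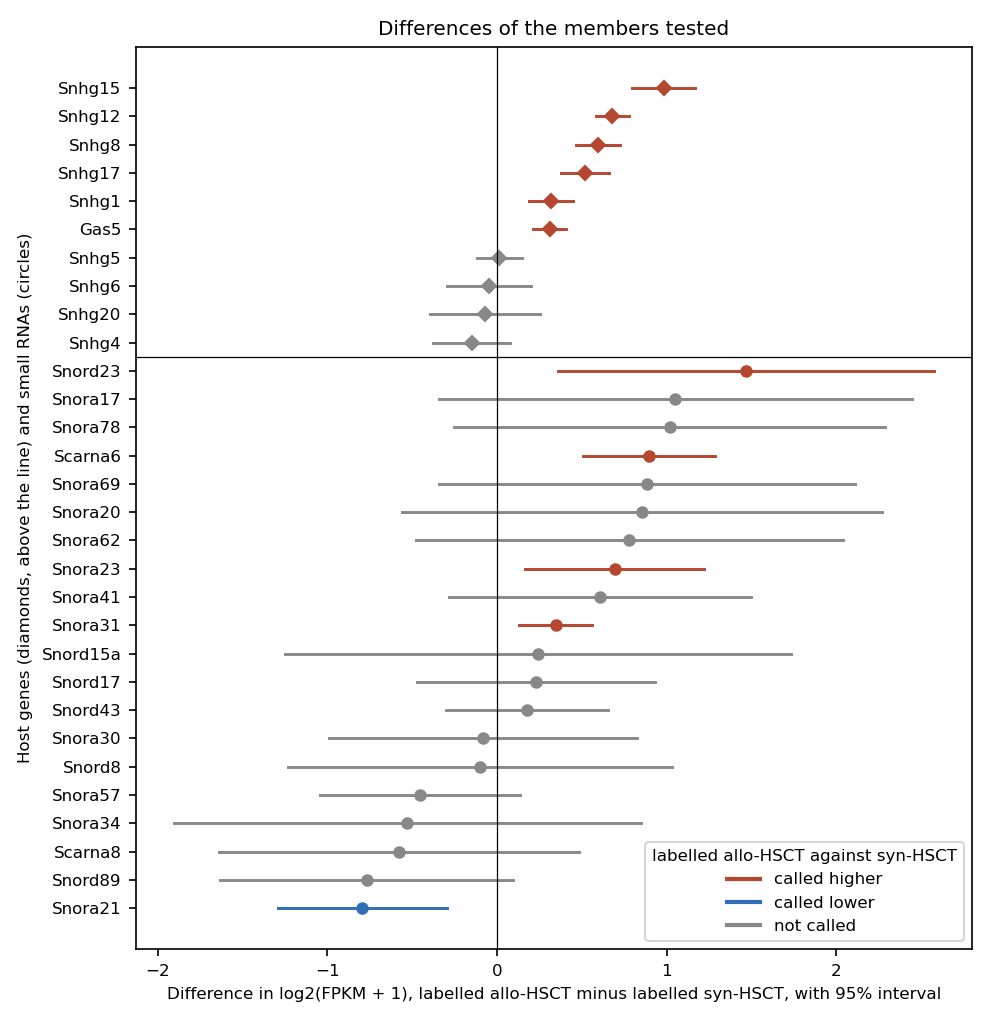
Difference in log2(FPKM + 1), allo-labelled minus syn-labelled, with its 95% interval from limma, for the 10 host genes (diamonds) and 20 small RNAs (circles) tested; red is called higher, blue called lower and grey not called. Intervals of the host genes are narrow, with a median SE of 0.06, and those of the small RNAs wide, with a median SE of 0.41.

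Small RNAs were then set beside the genes they lie in. In the annotation 22 small RNAs lay in introns of a gene on the same strand, 2 in exons (Snora16a in Snhg12 and Snora2b in Kansl2) and 3 had no such gene (Snora57, Snora17 and Scarna2). Outside the Snhg genes and Gas5, 20 of these hosts had a row and 19 were tested, of which 7 were higher and 10 lower in allo-labelled libraries, with a median log2 difference of -0.10, beside 34.7% higher and 33.0% lower over all genes tested. Of 16 pairs with both partners tested, 7 had differences of the same sign and 5 had both partners called. Among those 5, both partners were higher for Snora31 with Tpt1 and for Scarna6 with Atg16l1. The directions were opposite for Snora21 with Rpl23, Snora23 with Ipo7 and Snord23 with Nop53. Ipo7 and Nop53 were lower while their small RNAs were higher.

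Snora31 and Tpt1, which encodes an abundant growth-related protein, were both higher in allo-labelled libraries. Tpt1 averaged 1000 ± 27.9 FPKM in allo-labelled and 767 ± 15.7 FPKM in syn-labelled libraries (SD, n = 3 each), a log2 difference of 0.38 ± 0.03 (SE; limma adjusted p = 2.52e-05), beside 0.35 for Snora31. The level of Snora31 as a percent of that of Tpt1 was 4.94 ± 0.16 in allo-labelled and 5.07 ± 0.70 in syn-labelled libraries (SD, n = 3 each), with overlapping groups (two-sided exact permutation test, p = 0.7). With 3 libraries against 3 the smallest p this test allows is 0.1. Of the 16 pairs with both partners tested, 6 were compared, picked by hand without a set rule.

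Snora21 and Rpl23 were called in opposite directions. Rpl23 had 258, 242 and 239.8 FPKM in allo-labelled libraries, against 218, 227 and 216 FPKM in syn-labelled libraries, a log2 difference of 0.16 ± 0.03 (SE; limma adjusted p = 0.00523). Snora21 as a percent of Rpl23 was 1.82, 0.92 and 1.61 in allo-labelled libraries, against 3.50, 3.03 and 2.71 in syn-labelled libraries. Each of the 2 genes separated the groups, in opposite directions, so their percentages could not overlap. The exact permutation p of 0.1, the smallest possible, therefore adds nothing to those 2 calls.

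Rpl3, another ribosomal protein gene and host of Snord43, had the largest difference among hosts with both partners tested. Snord43 is counted as a box C/D RNA by its name, although its row is annotated as a miRNA. Rpl3 had 249.9, 248 and 251 FPKM in allo-labelled libraries, against 469, 462 and 462 FPKM in syn-labelled libraries. The log2 difference of Rpl3 was -0.89 ± 0.02 (SE; limma adjusted p = 6.91e-08). Snord43 had 11, 12 and 6 fragments in allo-labelled libraries, against 7, 10 and 10 fragments in syn-labelled libraries, and its log2 difference of 0.18 ± 0.20 (SE) was not called. As a percent of Rpl3 it was 2.27 ± 0.70 in allo-labelled and 1.03 ± 0.11 in syn-labelled libraries (SD, n = 3 each), without overlap (exact permutation p = 0.1).

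Scarna6 was 37.7 ± 9.25 percent of Atg16l1, an autophagy gene, in allo-labelled and 17.9 ± 5.41 percent in syn-labelled libraries (SD, n = 3 each). The groups did not overlap (exact permutation p = 0.1), and Atg16l1 itself was higher, by a log2 difference of 0.30 ± 0.06 (SE; limma adjusted p = 0.00309). For Snora41 in Eef1b2 and Snord17 in Snx5 the percentages overlapped (exact permutation p = 0.8 and 0.4). Eef1b2 averaged 277 ± 10.1 FPKM in allo-labelled and 199 ± 2.95 FPKM in syn-labelled libraries, the largest gain among these hosts together with the non-coding Gm15832, host of Snord89, both at a log2 difference of 0.47. For Gm15832 quantile normalization gave 0.23 and ended the call (limma adjusted p = 0.148), and voom on the recovered fragments gave 0.83. Zbed3, host of Snora47, fell by 0.94 on the log2 scale, and Haus6, host of Scarna8, fell by 0.48 (limma adjusted p = 0.000697 and 8.59e-05).

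**Figure D5:**
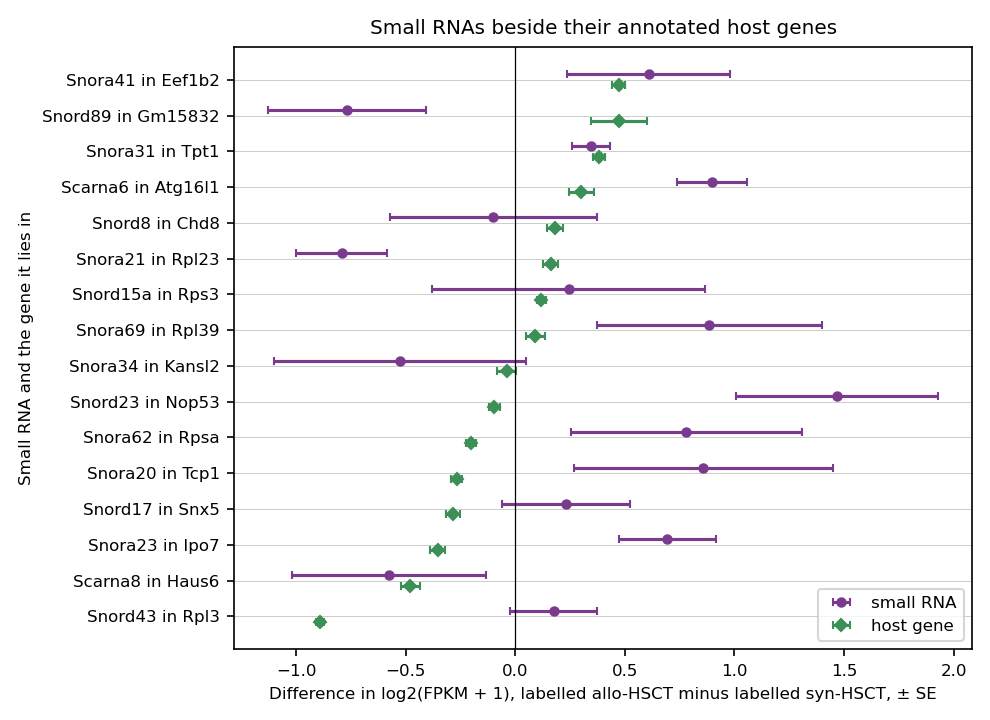
Difference in log2(FPKM + 1), allo-labelled minus syn-labelled, ± SE, for 16 small RNAs (purple circles) and the genes they lie in (green diamonds), ordered by the host gene. Both differences have the same sign in 7 of the 16 pairs, and the errors of the small RNAs are the wider ones.

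Genes for the proteins that work with these RNAs were called in both directions. Over 4 lists of 74 tested genes, 13 were higher, 28 were lower and 33 were not called, with a median log2 difference of -0.07 against 0.01 over all genes tested. These 41 calls stand beside a background of 67.6% called, 34.7% higher and 33.0% lower. The genes named are, per list, the 4 called with the smallest p, while Dkc1, Nop56 and Nop58 were named after their values were seen.

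Of 13 tested genes of the box C/D particle and its assembly, 2 were higher and 4 lower. Fbl, the methyltransferase fibrillarin, averaged 41.2 ± 3.34 FPKM in allo-labelled and 31.4 ± 0.99 FPKM in syn-labelled libraries (SD, n = 3 each), with a limma adjusted p of 0.00104. Its partners in the particle, Nop56 and Nop58, had log2 differences of -0.07 and -0.08 and were not called. Snu13, which binds the RNA's kink turn, averaged 26.6 ± 1.65 FPKM in allo-labelled and 34.6 ± 2.35 FPKM in syn-labelled libraries (limma adjusted p = 0.0017), and Rpap3, a subunit of the assembly chaperone R2TP, 4.84 ± 0.52 FPKM in allo-labelled and 7.97 ± 0.62 FPKM in syn-labelled libraries (limma adjusted p = 0.000552). The chaperone Hsp90aa1 fell by 0.12 on the log2 scale, and quantile normalization ended that call.

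Of 11 tested genes of the box H/ACA particle, the Cajal body and assembly, 1 was higher and 6 were lower. Dkc1, the pseudouridine synthase dyskerin, had 23.1, 23.4 and 22.1 FPKM in allo-labelled libraries, against 19.1, 21.0 and 19.9 FPKM in syn-labelled libraries (limma adjusted p = 0.00774). The core proteins Nop10 and Nhp2 both fell by 0.22 on the log2 scale. Wrap53, which brings RNAs to the Cajal body, fell by 0.29, and Coil, the scaffold protein of that body, fell by 0.32 (limma adjusted p between 0.00134 and 0.00687 for the 4).

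Of 23 tested genes of the U3 processome and its partners in ribosomal RNA synthesis and modification, 4 were higher and 6 lower. Polr1a, the largest subunit of RNA polymerase I, averaged 9.44 ± 0.25 FPKM in allo-labelled and 5.30 ± 0.37 FPKM in syn-labelled libraries (limma adjusted p = 3.4e-05). Ncl, which encodes the nucleolar protein nucleolin, was lower, at 65.0 ± 0.84 FPKM in allo-labelled and 90.3 ± 1.56 FPKM in syn-labelled libraries (limma adjusted p = 3.61e-06). Npm1, which encodes nucleophosmin, was lower too, at 218 ± 3.69 FPKM in allo-labelled and 257 ± 5.82 FPKM in syn-labelled libraries. Nat10, which acetylates ribosomal RNA, was also lower, at 11.7 ± 0.50 FPKM in allo-labelled and 16.9 ± 0.43 FPKM in syn-labelled libraries.

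Of 27 tested genes of small RNA release and host RNA turnover, 6 were higher and 12 lower. Parn, a nuclease that trims the 3′ ends of small RNAs, averaged 4.13 ± 0.09 FPKM in allo-labelled and 7.53 ± 0.51 FPKM in syn-labelled libraries (limma adjusted p = 4.17e-05). The exosome subunits Exosc8 and Exosc3 fell by 0.58 and 0.61 on the log2 scale. Smg1, a kinase of the nonsense-mediated decay that degrades many spliced host RNAs, was 28.8 ± 0.41 FPKM in allo-labelled and 22.2 ± 0.46 FPKM in syn-labelled libraries, a gain of 0.36 on the log2 scale (limma adjusted p = 3.78e-05).

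Other structured small RNAs gave little to set beside these. Of 23 such genes listed, 4 had a row and 1 was tested. Rn7sk, the RNA that restrains the elongation factor P-TEFb, had 13.6, 8.87 and 13.4 FPKM in allo-labelled libraries, against 5.92, 20.6 and 4.68 FPKM in syn-labelled libraries. Its groups overlapped widely, and the log2 difference of 0.43 ± 0.49 (SE) was not called (limma adjusted p = 0.467). A further 95 rows of the snoRNA or scaRNA class, 94 of them predicted genes with Gm symbols, fell outside the symbols chosen; of the 59 tested, 7 were higher and 2 lower, beside 34.7% and 33.0% over all genes tested.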

How the data were processed

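The deposited values are FPKM per gene in 1 table of 14750 rows. The unit was read from the values, and the aligner, counter, annotation and build are not given in the sources used here. Per the submitters' processing notes limma was used, with no version or role. Per the labels' protocols, ribosomal RNA was depleted from total RNA. FPKM multiplied by exon length in GENCODE vM21 gave whole multiples of 1 constant per library, within 0.1 fragments, for 94.3% to 94.6% of values, and for all 27 small RNAs and 8 of 11 host genes (not Snhg12, Snhg20 and Snhg4, the last without a matching identifier). These are the fragments quoted, 15154000 to 18715000 per library.

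The rows reaching 1 FPKM in 3 or more of the 6 libraries were fitted on log2(FPKM + 1), which understates changes of low genes, with limma 3.58.1 in R 4.3.3 (lmFit, eBayes with trend), and calls were made at a Benjamini-Hochberg adjusted p under 0.05. Directions are allo-HSCT minus syn-HSCT as labelled, and folds are ratios of mean FPKM. Fragment numbers carry at least counting error. The median squared difference between replicates was 2.23 to 2.41 times that expected from counting alone. It was taken over genes with more fragments than any of the small RNAs, and was not measured at their lower numbers. Whether counting used strand is not stated, so genes overlapping on opposite strands cannot be told apart. The fit was also run on simulated data in which a small share of genes changed. In the real data 67.6% of genes tested were called, so that run does not bear on the calls here. Percentages of a host were compared by exact permutation (scipy 1.17.1).

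Genes named are all host genes, the 6 small RNAs with most fragments, called small RNAs with a mean of at least 10 fragments in the higher group and no overlap, the 6 largest called annotated hosts (others beside a named small RNA), and up to 4 per pathway list. The members and lists were chosen with earlier results of these data known. Deviations of genes from their group mean correlated at 0.06, 0.12 and -0.08 between same-numbered libraries, so the numbers were not taken as pairs.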

Additional observations from a re-analysis of the deposited data

How the results depend on the processing

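The 6 host genes called higher were called in each of the alternatives in which they were tested, and the count of host genes higher was 5 or 6 in all 16. Host genes called lower were 1 after quantile normalization, which moved the median of all genes to -0.06, and 0 in the other alternatives. Small RNAs called higher were 1 of 6 tested with a filter at 5 FPKM and 1 of 6 tested with a filter at a mean of 10 fragments. That call was Snora31 in both, while Scarna6, Snora23 and Snord23 were not tested at these filters. Of 20 tested, 2 were called higher after quantile normalization, 2 with voom on recovered fragments, and 3 to 5 when 1 library was left out. Small RNAs called lower were 2 with the replicate number as a block, 2 without a filter, 0 with voom, and 1 to 2 when 1 library was left out (2 without syn-HSCT replicate 3, where Snord89 was added). The block gave 5 small RNAs and 6 host genes higher and called Snora57 lower (adjusted p = 0.0367). Pathway genes called were 35 to 45 over all alternatives. Signs turned for uncalled members when 1 library was left out: log2 differences ranged over -0.211 to 0.054 for Snhg20, -0.156 to 0.042 for Snhg6, -0.030 to 0.044 for Snhg5, -0.041 to 0.44 for Snord17 and -0.46 to 0.20 for Snora30. Over all alternatives they ranged over -0.50 to 0.31 for Snord8 and -1.14 to 0.85 for Snord15a; the cause was not tested. Fragments per small RNA limit every small RNA result.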
